A study of Mus musculus with 28 samples.

Results

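Genes of the matrix proteases, their inhibitors and the lysyl oxidases were followed in tibialis anterior (TA) muscle of mice. The 45 genes are members of the MMP, TIMP, ADAMTS and LOX families, with the membrane inhibitor Reck. They were listed by family, with no threshold on their values but with earlier results of these data known, and they are not the whole of these families: 13 further genes, Mmp9 and Mmp13 among them, stand outside the list and are given last. All 45 were found in both count tables, which hold 55416 and 55359 genes. RNA-seq was available from 28 mice in 7 groups of 4, 8 weeks old and of the C57BL/6N strain, and the sex of the mice was not given. In the first cohort, WT mice and Dnm2 S619L/+ mice, heterozygous for a mutation of the membrane-remodelling GTPase dynamin 2, each received placebo or tamoxifen. In the second cohort, Bin1 mck-/- mice, in which Bin1 is deleted in muscle under the MCK promoter, received placebo or tamoxifen, and WT mice received placebo. WT mice on tamoxifen belong to the first cohort only, so tamoxifen in Bin1 mck-/- mice has no WT counterpart. Library preparation used 300 ng RNA and a 2 min fragmentation in the first cohort, but 350 ng and 8 min in the second, so mouse model and library protocol cannot be told apart, and tests were made within a cohort.

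Matrix metalloproteinases are zinc enzymes that cleave collagens and other proteins around cells. They are made as inactive precursors, and the TIMPs block the active enzymes. The ADAMTS proteases cleave proteoglycans such as versican and aggrecan or remove the N-terminal propeptide of procollagens, and the ADAMTS-like proteins lack a protease domain. Lysyl oxidases crosslink collagen and elastin. In muscle, most of these genes are used by fibroblasts, macrophages and vessel cells, and in bone and tendon by the cells that build and remodel the matrix.

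The gene counts of a mouse added up to between 15586333 and 109710886 in the first cohort and to between 24671835 and 35136327 in the second. Levels are given in CPM, the usual depth-scaled unit, as counts of a gene relative to the library size after TMM scaling. Myofiber markers summed to 85220.0 CPM or more in every mouse. Some libraries stood apart in markers of other tissues. The 10 osteoblast and osteocyte markers summed to 628 to 1631 CPM in WT tamoxifen mice and to 29.8 to 57.5 CPM in the WT placebo mice of that cohort. In Dnm2 S619L/+ tamoxifen mice the sum was 341 to 957 CPM in mice 1 to 3 and 56.98 CPM in mouse 4, against 11.7 to 19.0 CPM on placebo, where Bglap2 and Mepe were at 0 in all mice. In Bin1 mck-/- tamoxifen mice it was 466 CPM in mouse 2 and 18.3 to 25.6 CPM in the other 3, with Mepe at 0, and on placebo Ibsp, Bglap2, Mepe and Sost were at 0. The 7 tendon markers summed to 1084 CPM in Bin1 mck-/- placebo mouse 4 and to 107 to 259.5 CPM in the other 3 mice of its group. In whole muscle, fewer cells of a type and less RNA per cell cannot be told apart.

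The promoters of 27 of the 45 members were found in RefSeq (GRCm38.p6). Those of 4 members are shown because results turn on them and their patterns differ in the first cohort. There, Timp1 was high in Dnm2 S619L/+ mice on placebo, Mmp14 rose with tamoxifen, Timp3 fell with the Dnm2 mutation, and Adamts9 fell with the mutation and rose with tamoxifen. Each line holds the 250 bases before the annotated start, 5′ to 3′ on the strand of the gene, and capitals mark the GC box letters GGGCGG and the RUNX core letters TGTGGT on either strand.
Timp1, chrX:20869916-20870165, plus strand: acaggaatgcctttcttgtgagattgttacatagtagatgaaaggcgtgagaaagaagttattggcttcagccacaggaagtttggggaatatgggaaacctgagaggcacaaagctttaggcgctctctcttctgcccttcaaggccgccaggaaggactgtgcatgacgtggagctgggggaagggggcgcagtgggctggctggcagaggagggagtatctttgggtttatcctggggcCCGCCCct
Mmp14, chr14:54431348-54431597, plus strand: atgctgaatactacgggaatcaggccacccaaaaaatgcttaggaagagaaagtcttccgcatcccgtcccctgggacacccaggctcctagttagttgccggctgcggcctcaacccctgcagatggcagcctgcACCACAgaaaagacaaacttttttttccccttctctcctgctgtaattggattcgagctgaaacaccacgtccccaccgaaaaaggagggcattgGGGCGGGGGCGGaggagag
Timp3, chr10:86300162-86300411, plus strand: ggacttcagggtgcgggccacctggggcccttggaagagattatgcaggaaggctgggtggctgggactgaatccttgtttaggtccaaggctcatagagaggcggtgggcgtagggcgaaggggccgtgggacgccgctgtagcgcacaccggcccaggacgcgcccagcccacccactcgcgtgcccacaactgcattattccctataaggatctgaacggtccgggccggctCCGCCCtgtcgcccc
Adamts9, chr6:92943535-92943784, minus strand: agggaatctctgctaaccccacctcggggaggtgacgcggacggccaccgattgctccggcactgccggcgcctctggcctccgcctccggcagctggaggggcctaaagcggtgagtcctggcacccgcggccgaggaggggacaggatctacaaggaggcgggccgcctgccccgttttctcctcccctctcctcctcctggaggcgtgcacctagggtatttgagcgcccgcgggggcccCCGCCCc
A GC box stood in all 4 windows and in 20 of the 29 windows of members, and in 32.7% of all 32851 windows of this length. The RUNX core stood in the windows of Mmp14 and Mmp23, and in 14.0% of all windows. The AP-1 letters TGANTCA, searched on both strands, stood in Mmp3 and Mmp12, and in 6.75% of all windows. The letters TATAAA stood in Mmp3, Adamts1 and Adamtsl2, and in 12.4% of all windows. These matches describe letters and not bound sites.

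In WT muscle on placebo, inhibitors stood at the top of the members when levels were divided by exon length. In the first cohort, Timp3, an inhibitor that binds to the matrix, reached 39.7 ± 7.67 CPM per kilobase of exon (RPKM, SD, n = 4) and Timp2 23.5 ± 1.51. They were followed by the gelatinase Mmp2 at 16.9 ± 2.33 and by Adamtsl5 at 14.4 ± 4.41, which did not differ beyond their spread. In the second cohort, Timp2 came first at 23.2 ± 1.26, then Adamtsl5 at 18.9 ± 3.16 and Timp3 at 18.1 ± 2.56. The lowest members of the first cohort were Adamts19 at 0.00393 ± 0.00249 and Mmp24 at 0.00563 ± 0.00630. Mmp8, Mmp24 and Adamts19 stayed below the filter on low counts in both cohorts, and Adamts16 and Adamts18 also in the second, so that 42 members were tested in the first cohort and 40 in the second.

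**Figure D1:**
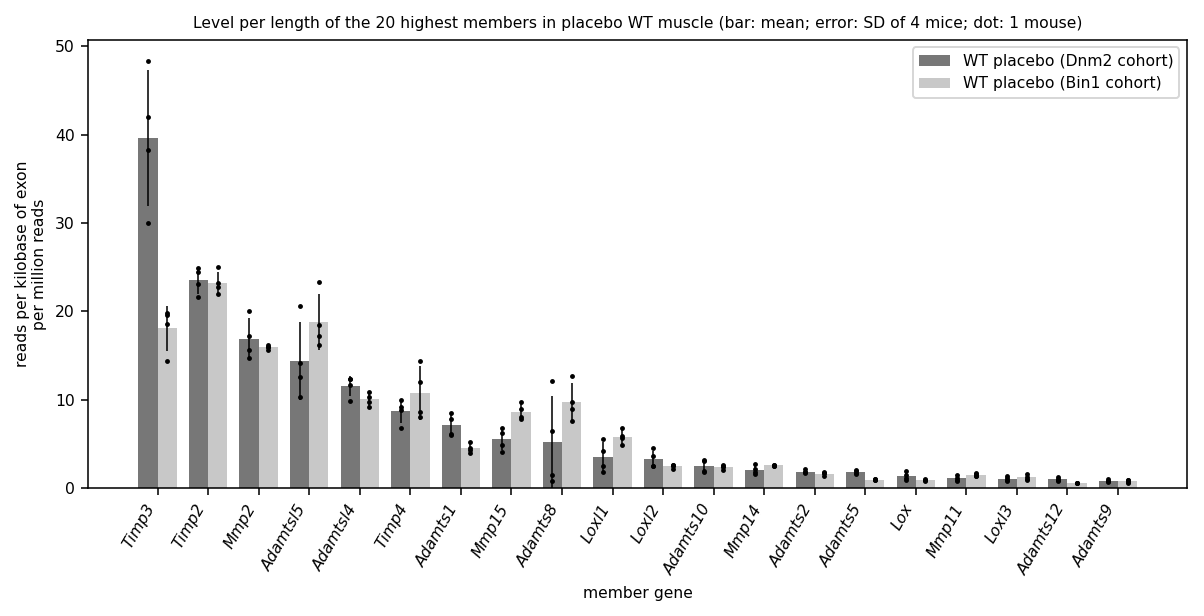
Levels per length, in CPM per kilobase of exon (RPKM), of the highest members in WT mice on placebo of both cohorts, with the SD and the 4 mice of each cohort as dots. Timp3, Timp2 and Mmp2 led in the first cohort, and Timp3 had 18.1 ± 2.56 in the second against 39.7 ± 7.67 in the first.

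Tamoxifen raised most of the family in WT mice. Of the 42 members tested, 24 rose (57.1%) and none fell at an adjusted p under 0.05 (edgeR quasi-likelihood test, adjusted over all genes tested), beside 15.8% of all genes that rose, 11.9% that fell and 27.7% called in either direction. At an unadjusted p under 0.05, 28 members were higher and 1 lower, a count not made over all genes. DESeq2 called 25 members higher and 1 lower, with 4917 of all genes called beside 4273 by edgeR. The median log2 fold change of the members was 0.90 and that of all genes -0.04. All 5 lysyl oxidases, all 5 secreted metalloproteinases tested and all 3 procollagen N-proteinases rose, with 3 of 5 membrane-anchored metalloproteinases, 3 of 5 inhibitors, 3 of 7 proteoglycanases and 2 of 7 other ADAMTS proteases. None of the 5 ADAMTS-like proteins was called.

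**Figure D2:**
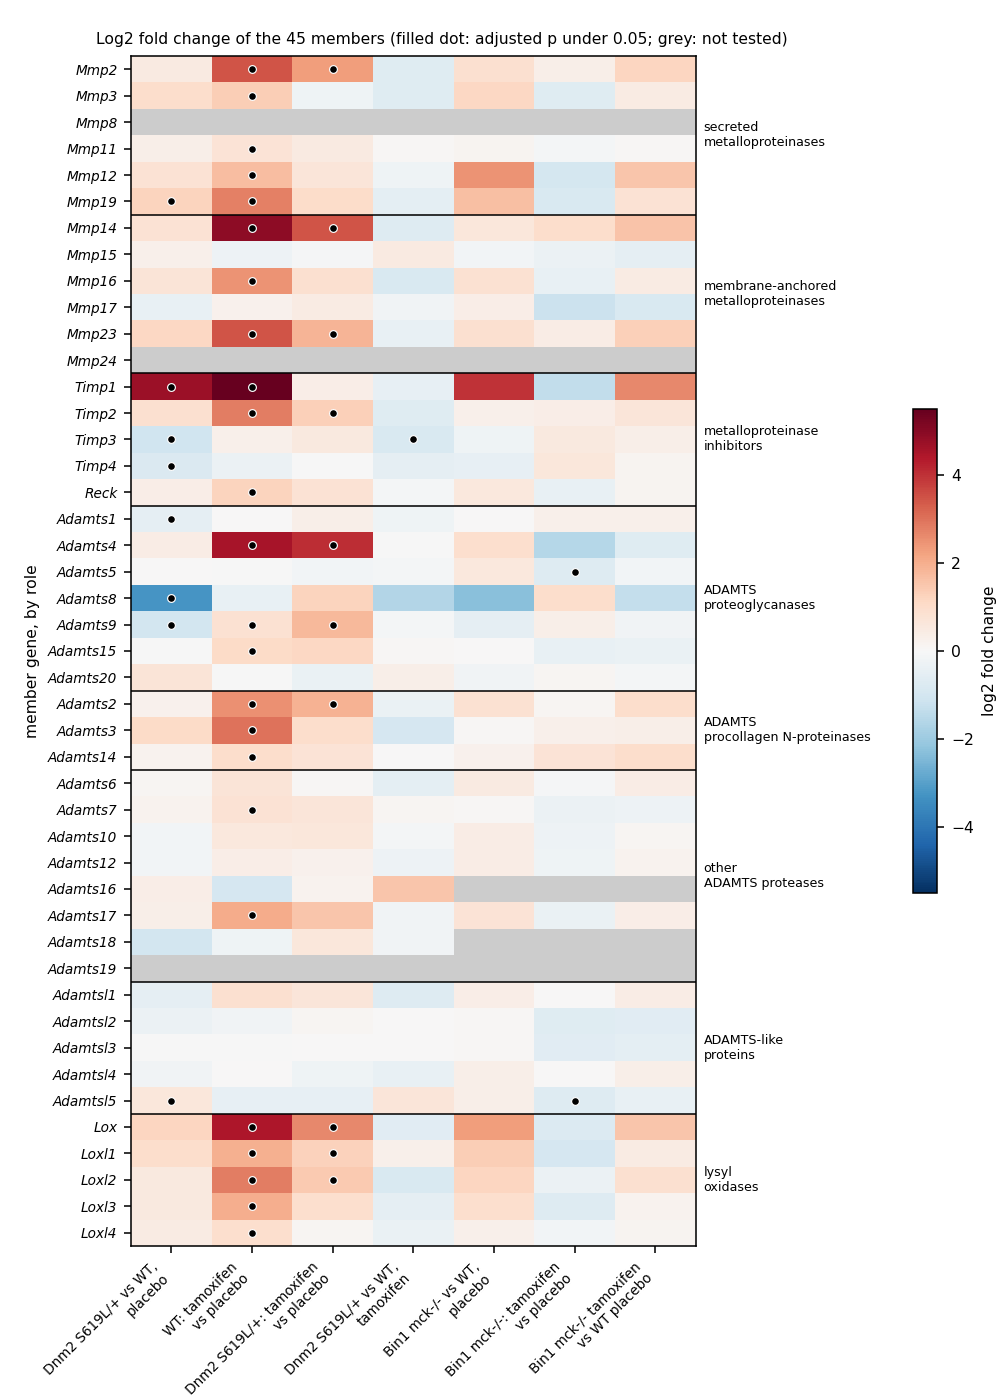
Log2 fold change of each member, grouped by role, in the comparisons of both cohorts, from blue (lower) to red (higher), with a dot where the adjusted p was under 0.05 and grey where a gene was not tested. Of the dots, 24 stand under WT mice on tamoxifen against placebo, 10 under Dnm2 S619L/+ mice on tamoxifen against placebo, and 2 under Bin1 mck-/- mice on tamoxifen against placebo.

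Among the membrane-anchored enzymes, Mmp14, which cleaves fibrillar collagen and activates the Mmp2 precursor, had 16.4, 10.9, 9.64 and 13.1 CPM in WT placebo mice and 423, 569.6, 255 and 304 CPM in WT tamoxifen mice. The lowest treated mouse lay far over the highest placebo mouse, and the log2 fold change was 4.94 ± 0.62 (SE, adjusted p = 0.00025). Mmp23 had 2.01, 1.19, 1.26 and 1.61 CPM on placebo and 18.2, 24.2, 13.8 and 13.8 CPM on tamoxifen, again with no overlap (3.44 ± 0.47, adjusted p = 0.00029). Mmp16 rose by 2.47 ± 0.45 on the log2 scale from a low level of 0.158 to 0.395 CPM. Mmp15 (-0.27 ± 0.18) and Mmp17 (0.22 ± 0.31) were not called.

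Of the secreted enzymes, the gelatinase Mmp2 had 67.5, 52.8, 49.5 and 58.2 CPM in WT placebo mice and 638, 882, 434 and 543 CPM in WT tamoxifen mice (3.45 ± 0.48, adjusted p = 0.00033). Mmp19 went from 3.13, 2.92, 2.21 and 2.41 CPM to 16.8, 28.5, 13.3 and 16.0 CPM (2.76 ± 0.33, adjusted p = 0.00022). Neither pair of groups overlapped. The macrophage elastase Mmp12 rose by 1.69 ± 0.57, the stromelysin Mmp3 by 1.36 ± 0.35 and Mmp11 by 0.74 ± 0.24 on the log2 scale, from low levels of 0.0791 to 0.368, 0.316 to 0.618 and 2.21 to 4.18 CPM on placebo.

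Inhibitors rose with the enzymes. Timp1, a soluble inhibitor that is induced in injured and inflamed tissue, had 0.659, 0.481, 0.395 and 1.41 CPM in WT placebo mice and 41.2, 55.2, 22.4 and 32.5 CPM in WT tamoxifen mice. Its log2 fold change of 5.49 ± 0.67 (adjusted p = 0.00023) was the largest of the 42 members in this comparison. Timp2, which takes part in the activation of the Mmp2 precursor by Mmp14, had 97.3, 90.04, 84.2 and 95.3 CPM on placebo and 654, 878, 447 and 601 CPM on tamoxifen (2.81 ± 0.39, adjusted p = 0.00030). Neither overlapped between the groups. The membrane inhibitor Reck rose by 1.23 ± 0.26, and Timp3 (0.28 ± 0.19) and Timp4 (-0.31 ± 0.20) were not called.

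The crosslinking enzyme Lox had 6.92, 4.50, 5.38 and 9.38 CPM in WT placebo mice and 175, 171, 129.6 and 102 CPM in WT tamoxifen mice (4.44 ± 0.55, adjusted p = 0.00024). Loxl2 went from 24.5, 13.4, 13.6 and 19.4 CPM to 144, 183, 83.4 and 91.1 CPM (2.81 ± 0.38, adjusted p = 0.00029). Loxl1, which acts on elastin, went from 18.4, 8.29, 5.93 and 13.7 CPM to 37.8, 58.3, 38.1 and 51.4 CPM (1.97 ± 0.34, adjusted p = 0.00094). In these 3 genes the groups did not overlap. Loxl3 rose by 2.00 ± 0.37 and Loxl4 by 0.91 ± 0.26 on the log2 scale.

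The procollagen N-proteinase Adamts2 had 20.1, 16.6, 15.8 and 17.2 CPM in WT placebo mice and 102, 136, 76.2 and 82.2 CPM in WT tamoxifen mice, with no overlap (2.5 ± 0.34, adjusted p = 0.00030), and its relatives Adamts3 (2.97 ± 0.56) and Adamts14 (0.96 ± 0.29) rose as well. The proteoglycanases were divided. Adamts4, an aggrecanase, had 0.730, 0.113, 0.395 and 0.112 CPM on placebo and 13.1, 13.0, 9.23 and 4.004 CPM on tamoxifen (4.54 ± 0.80, adjusted p = 0.0011). Adamts9, which cleaves versican and aggrecan, had 12.3, 12.8, 10.9 and 16.1 CPM on placebo and 30.1, 29.1, 21.1 and 13.9 CPM on tamoxifen, with 1 treated mouse inside the placebo range (0.85 ± 0.22, adjusted p = 0.012). Adamts15 rose by 1.06 ± 0.36. Adamts1 (0.03 ± 0.17), Adamts5 (-0.01 ± 0.20), Adamts8 (-0.40 ± 0.67) and Adamts20 (-0.02 ± 0.31) were not called. Of the other ADAMTS proteases, Adamts17 (2.05 ± 0.53) and Adamts7 (0.78 ± 0.23) rose. Adamts10 had 26.3, 15.2, 15.7 and 25.4 CPM on placebo and 32.0, 37.2, 27.3 and 29.1 CPM on tamoxifen, where every treated mouse lay over every placebo mouse, and missed the threshold (0.60 ± 0.24, adjusted p = 0.075).

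Of the 24 calls, 18 were kept without any 1 mouse of the cohort. Loxl4 was lost without tamoxifen mouse 1, Adamts14 without tamoxifen mouse 1 or 2, and Adamts7 without placebo mouse 3 or tamoxifen mouse 2, with adjusted p up to 0.089. Mmp11 was lost without placebo mouse 1, 2 or 3 or tamoxifen mouse 2 or 4 (adjusted p up to 0.088), Mmp12 without any 1 of the placebo mice or tamoxifen mouse 1 or 2 (0.12), and Adamts15 without placebo mouse 2, 3 or 4, tamoxifen mouse 1, 2 or 3 or Dnm2 S619L/+ tamoxifen mouse 1 (0.13). Markers of other tissues moved with these members. Of those tested, 7 of 8 osteoblast and osteocyte, 7 of 8 osteoclast, 6 of 7 tendon, 3 of 6 cartilage, 7 of 8 macrophage and 3 of 8 fibroblast and fibro-adipogenic progenitor markers rose, and 1 of 5 satellite cell markers fell. The osteoclast markers summed to 264 to 1534 CPM in WT tamoxifen mice and 7.27 to 11.9 CPM in WT placebo mice. Calcr counts in both the osteoclast and the satellite cell list, here and below. The tendon sums were 742 to 1713 and 48.0 to 269 CPM, the fibroblast and progenitor sums 1304 to 1880.0 and 470.4 to 630.0 CPM, the macrophage sums 213 to 409 and 78.3 to 136 CPM, and the myofiber sums 99350.0 to 112400.0 and 125000.0 to 154500.0 CPM. Of these markers, the cartilage gene Matn1 was at 0 in all mice of both groups. The part of these cells in the rise was not tested.

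In Dnm2 S619L/+ mice, tamoxifen raised 10 of the 42 members (23.8%) and lowered none, beside 5.22% of all genes that rose, 3.05% that fell and 8.27% called in either direction. All 10 were among the 24 that rose in WT mice. The 2 comparisons share no mice, but they come from 1 fit with 1 estimate of the spread. The same overlap was not counted over all genes, so it has no background here. The median log2 fold change of the members was 0.66 and that of all genes -0.03. The count moved with the fit, over all genes as well. In edgeR without the WT groups, Adamts9 alone was called, with 30 of all genes. Without a filter on low counts, edgeR called 6 members and 814 of all genes. DESeq2 called 15 members, all higher, and 1870 of all genes, beside 1277 in edgeR on all groups.

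Mmp14 had 24.7, 18.8, 21.4 and 21.7 CPM in Dnm2 S619L/+ placebo mice and 178, 323, 426 and 23.7 CPM in Dnm2 S619L/+ tamoxifen mice (3.45 ± 0.58, adjusted p = 0.0039). Lox had 18.4, 10.8, 19.1 and 12.4 CPM on placebo and 73.6, 124, 168 and 14.8 CPM on tamoxifen (2.64 ± 0.51, adjusted p = 0.0077). Mmp2 had 112, 99.6, 61.5 and 48.0 CPM on placebo and 342, 549, 620.0 and 80.3 CPM on tamoxifen (2.31 ± 0.46, adjusted p = 0.0089). In these 3 genes, mouse 4 lay inside the range of the placebo mice and the other 3 treated mice lay above it. Mmp23 had 3.63, 4.17, 2.94 and 3.17 CPM on placebo and 10.3, 17.7, 21.7 and 2.56 CPM on tamoxifen (1.89 ± 0.44, adjusted p = 0.019), and Timp2 had 198, 186, 139.6 and 145 CPM on placebo and 332, 539, 662 and 113 CPM on tamoxifen (1.30 ± 0.37, adjusted p = 0.043). In both, mouse 4 was below all placebo mice and the other 3 were above them. Loxl2 had 33.2, 30.5, 20.6 and 20.3 CPM on placebo and 52.7, 83.8, 115 and 31.4 CPM on tamoxifen (1.43 ± 0.36, adjusted p = 0.027). Loxl1 had 24.8, 26.0, 24.4 and 16.5 CPM on placebo and 52.6, 69.6, 73.4 and 27.1 CPM on tamoxifen (1.28 ± 0.33, adjusted p = 0.029), where mouse 4 was just over the placebo range. In Loxl2, mouse 4 lay inside the range of the placebo mice. Without any 1 of placebo mouse 4 and tamoxifen mice 2 and 3, the calls of Mmp23, Timp2, Loxl1 and Loxl2 were lost (adjusted p up to 0.078, 0.16, 0.11 and 0.11 over all mice left out). Loxl1 and Loxl2 were also lost without placebo mouse 2, Loxl1 without tamoxifen mouse 1, and Loxl2 without placebo mouse 3. Timp2 was kept only without WT placebo mouse 4, WT tamoxifen mouse 2 or 3 or Dnm2 S619L/+ tamoxifen mouse 4.

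The ADAMTS members went partly otherwise. Adamts9 had 7.10, 5.81, 7.47 and 5.26 CPM in Dnm2 S619L/+ placebo mice and 14.7, 24.8, 24.7 and 23.7 CPM in tamoxifen mice (1.77 ± 0.23, adjusted p = 0.0013). All 4 treated mice were above all placebo mice, with mouse 1 the lowest, and the call was kept without any 1 mouse. Adamts2 had 24.3, 21.6, 21.1 and 14.4 CPM on placebo and 70.2, 109, 99.7 and 25.1 CPM on tamoxifen (1.90 ± 0.34, adjusted p = 0.0055). Adamts4 had 0.451, 0, 1.22 and 0.396 CPM on placebo and 9.84, 13.2, 14.2 and 1.36 CPM on tamoxifen (4.08 ± 0.79, adjusted p = 0.0081). In both, mouse 4 lay just over the placebo range. Adamts1 and Adamts15 lay above, and Adamtsl5 below, every placebo mouse in all 4 treated mice, without being called. The share of all genes without overlap was not counted in this comparison.

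**Figure D3:**
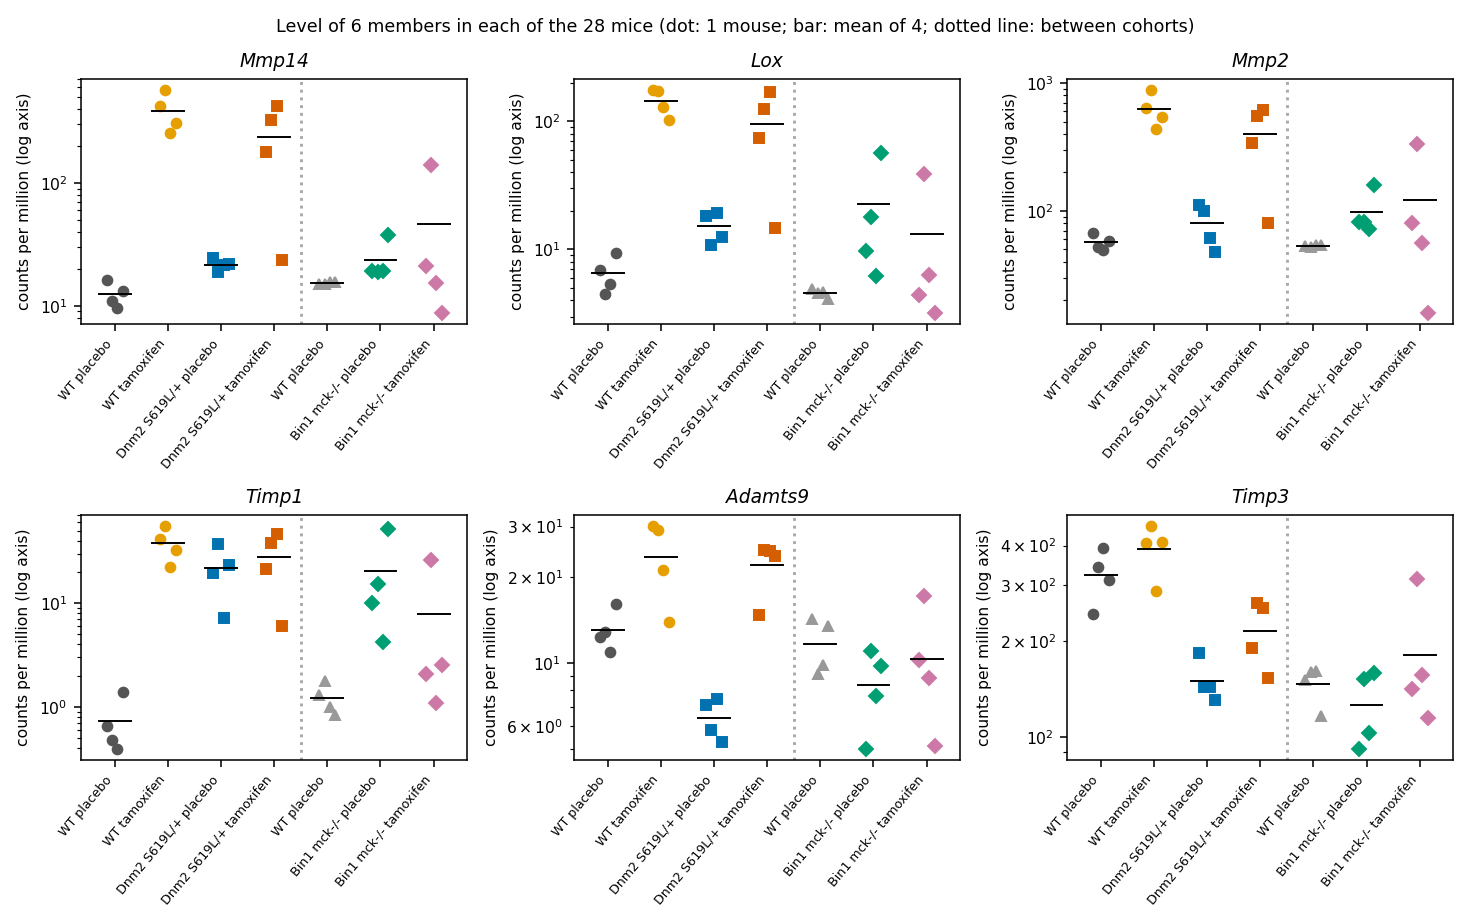
CPM of 6 members on log axes in the 28 mice, with a dot for each mouse, a bar for the mean of its group and a dotted line between the cohorts. In Dnm2 S619L/+ tamoxifen mice, mouse 4 lies near the placebo mice for Mmp14 (23.7 CPM) and Lox (14.8 CPM) but not for Adamts9 (23.7 CPM).

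Of the 24 members that rose in WT mice, 17, 23 and 21 lay above every Dnm2 S619L/+ placebo mouse in tamoxifen mice 1, 2 and 3, and 6 did in mouse 4 (Adamts2, Adamts4, Adamts9, Adamts14, Adamts15 and Loxl1). The share of all genes above every placebo mouse was not counted, so these numbers have no background. Without mouse 4, 20 members were called in place of 10, and 2562 of all genes in place of 1277. The members added were Mmp11, Mmp19, Timp3, Reck, Adamts7, Adamts10, Adamts15, Adamts17, Adamtsl1 and Loxl3. Without tamoxifen mouse 2 or 3, or without placebo mouse 4, 6 members were called. All genes called then numbered 406, 368 and 767. Of the markers tested, 7 of 8 osteoblast and osteocyte, 6 of 8 osteoclast, 2 of 6 cartilage, 1 of 8 fibroblast and progenitor and 2 of 5 satellite cell markers rose with tamoxifen. The osteoclast markers of mouse 4 summed to 24.7 CPM against 250.2 to 728 CPM in the other 3, its tendon markers to 119 against 526 to 879 CPM, and its myofiber markers to 139200.0 against 85220.0 to 105300.0 CPM. The part of these cells in the result was not tested.

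**Figure D4:**
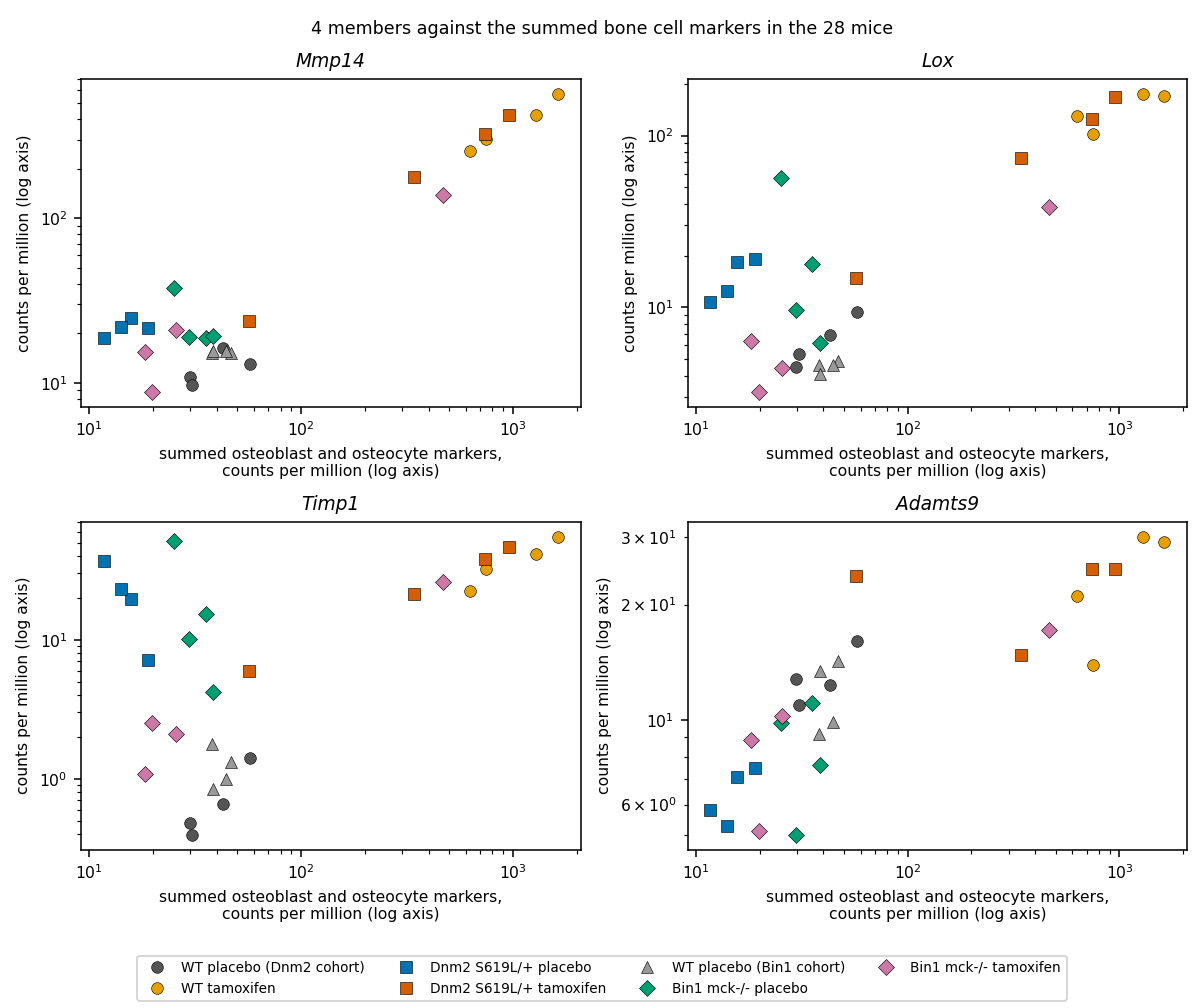
CPM of single members (y axis, log) against the summed CPM of 10 osteoblast and osteocyte markers (x axis, log) in the 28 mice, coloured by group. For Mmp14, the 8 mice with sums of 341 CPM or more have 139 CPM or more and the other 20 have 37.7 CPM or less, while Timp1 reached 36.8 CPM at a sum of 11.7 CPM.

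Tamoxifen moved Timp1 differently in the 2 genotypes. In Dnm2 S619L/+ mice, Timp1 had 19.5, 36.8, 7.198 and 23.1 CPM on placebo and 21.2, 38.3, 46.4 and 5.96 CPM on tamoxifen. These groups overlapped, with a log2 fold change of 0.37 ± 0.53 (adjusted p = 0.71) beside 5.49 ± 0.67 in WT mice. The difference of the 2 changes, tested as the interaction of genotype and tamoxifen, was -5.13 ± 0.83 (adjusted p = 0.025). Timp1 was the only member called in this test (2.38% of 42), beside 0.0324% of all genes with a higher, 0.227% with a lower and 0.259% with either difference. The call was lost without 10 of the 16 mice, namely WT placebo mouse 1, 2 or 3, WT tamoxifen mouse 1 or 2, Dnm2 S619L/+ placebo mouse 1, 2 or 4 and Dnm2 S619L/+ tamoxifen mouse 1 or 2, with adjusted p up to 0.086, and also without a filter on low counts and with libraries thinned to the smallest. The difference was -1.73 ± 0.44 in Mmp19 (adjusted p = 0.13), -1.49 ± 0.75 in Mmp14 (0.41) and 0.92 ± 0.32 in Adamts9 (0.25). The median over the members was -0.31, beside -0.01 for all genes.

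Between the genotypes on tamoxifen, Timp3 was the only member called, lower in Dnm2 S619L/+ mice (2.38% of 42), beside 0.518% of all genes lower, 2.18% higher and 2.7% either way. It had 407, 460.3, 288 and 409 CPM in WT tamoxifen mice and 191, 263, 255 and 153 CPM in Dnm2 S619L/+ tamoxifen mice, with no overlap (-0.86 ± 0.19, adjusted p = 0.024). The call was lost without WT tamoxifen mouse 1 or 2 or Dnm2 S619L/+ tamoxifen mouse 1 or 4, with adjusted p up to 0.10. Adamtsl5 had 42.3, 53.7, 46.7 and 55.9 CPM in WT and 83.9, 70.4, 72.2 and 88.4 CPM in Dnm2 S619L/+ tamoxifen mice, also with no overlap, and just missed the threshold (0.67 ± 0.17). It was called by DESeq2, and in edgeR on these 2 groups alone it was called and Timp3 was not. Adamts8 lay lower and Mmp15 higher in every Dnm2 S619L/+ tamoxifen mouse than in every WT tamoxifen mouse, and neither was called. The share of all genes without overlap was not counted in this comparison. Mmp14 was at -0.71 ± 0.53, Lox at -0.60 ± 0.48 and Adamts9 at -0.10 ± 0.22, with overlap of the groups in each.

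On placebo, the share of members called with the Dnm2 mutation was near that of all genes. Of the 42 members tested, 3 were higher (7.14%) and 5 lower (11.9%) in Dnm2 S619L/+ mice than in WT mice, 19.0% in all. Among all genes, 12.1% were higher, 9.81% lower and 21.9% called in either direction. The log2 fold change was positive in 28 members and negative in 14. Its median was 0.33 over the members and 0.02 over all genes. DESeq2 and edgeR on these 2 groups alone each called 12 members, 7 higher and 5 lower. They called 4122 and 2931 of all genes, beside 3382 in edgeR on all groups. Timp1 had 0.659, 0.481, 0.395 and 1.41 CPM in WT mice and 19.5, 36.8, 7.198 and 23.1 CPM in Dnm2 S619L/+ mice (4.69 ± 0.66, adjusted p = 0.00026). Mmp19 had 3.13, 2.92, 2.21 and 2.41 CPM in WT and 7.42, 6.72, 3.71 and 7.48 CPM in Dnm2 S619L/+ mice (1.21 ± 0.32, adjusted p = 0.015). Neither overlapped between the groups. Adamtsl5 had 67.0, 59.4, 48.8 and 97.3 CPM in WT and 107, 123, 89.99 and 106 CPM in Dnm2 S619L/+ mice, with 1 WT mouse above the lowest Dnm2 S619L/+ mouse (0.64 ± 0.17, adjusted p = 0.016). That call was lost without Dnm2 S619L/+ placebo mouse 2 (adjusted p = 0.051).

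The members that fell were 2 inhibitors and 3 proteoglycanases. Timp3 had 244, 342, 394 and 312 CPM in WT and 184, 144, 144 and 131 CPM in Dnm2 S619L/+ mice (-1.10 ± 0.19, adjusted p = 0.0012). Adamts9 had 12.3, 12.8, 10.9 and 16.1 CPM in WT and 7.10, 5.81, 7.47 and 5.26 CPM in Dnm2 S619L/+ mice (-1.02 ± 0.23, adjusted p = 0.0063). Both were without overlap and were kept without any 1 mouse. Timp4 had 40.0, 58.7, 51.9 and 54.2 CPM in WT and 40.8, 21.2, 31.6 and 24.1 CPM in Dnm2 S619L/+ mice (-0.79 ± 0.21, adjusted p = 0.014), with 1 Dnm2 S619L/+ mouse inside the WT range, and was lost without WT placebo mouse 2 (adjusted p = 0.052). Adamts1, which cleaves versican, had 31.7, 41.5, 32.6 and 45.1 CPM in WT and 25.2, 26.8, 27.2 and 26.6 CPM in Dnm2 S619L/+ mice (-0.51 ± 0.17, adjusted p = 0.039). It did not overlap, but was lost without any 1 of the 4 Dnm2 S619L/+ placebo mice or without WT placebo mouse 2 or 4 (adjusted p up to 0.11). Adamts8 had 55.9, 6.85, 3.79 and 29.9 CPM in WT and 1.96, 1.78, 4.80 and 1.74 CPM in Dnm2 S619L/+ mice, a wide spread in WT with overlap of the groups (-3.24 ± 0.75, adjusted p = 0.0076).

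Markers of cell types moved with these members: 3 of 6 endothelial, 3 of 5 smooth muscle and pericyte and 4 of 5 satellite cell markers were lower in Dnm2 S619L/+ mice, and 4 of 8 macrophage, 3 of 7 tendon and 3 of 8 fibroblast and fibro-adipogenic progenitor markers were higher. The pericyte marker Cspg4 was higher (0.61 ± 0.20, adjusted p = 0.044), against the other called markers of its list. In addition, 1 marker each of myofibers, osteoblasts and osteocytes, osteoclasts and erythroid cells was lower. The osteoclast markers together summed to 7.27 to 11.95 CPM in WT and 17.5 to 20.6 CPM in Dnm2 S619L/+ mice, higher without overlap. Calcr counts in both the osteoclast and the satellite cell list. The endothelial markers summed to 358 to 716 CPM in WT and 168 to 488 CPM in Dnm2 S619L/+ mice, the smooth muscle and pericyte markers to 1021 to 1177 and 364 to 694 CPM, the satellite cell markers to 12.3 to 16.7 and 1.46 to 3.70 CPM, the macrophage markers to 78.3 to 136 and 118 to 434 CPM, the tendon markers to 48.0 to 269 and 265 to 516 CPM, and the fibroblast and progenitor markers to 470.4 to 630.0 and 630.2 to 1135 CPM. Their part in the result was not tested. Lox (1.19 ± 0.50, adjusted p = 0.097), Loxl1 (0.95 ± 0.33, 0.052) and Mmp23 (1.13 ± 0.45, 0.087) were not called by edgeR. DESeq2 called them. Every Dnm2 S619L/+ mouse lay above every WT mouse in Lox and Mmp23. This also held for Mmp14 (18.8 to 24.7 against 9.64 to 16.4 CPM) and Timp2 (139.6 to 198.5 against 84.2 to 97.3 CPM), not called by edgeR on all groups. The share of all genes without overlap was not counted in this comparison. Without Dnm2 S619L/+ tamoxifen mouse 4, which enters the fit through the shared spread, 12 members were called in place of 8, with Mmp23, Timp2, Lox and Loxl1 added. Over all genes, 3953 were called in place of 3382.

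In Bin1 mck-/- mice on placebo, no member was called against WT mice by edgeR (0 of 40), beside 1.99% of all genes higher, 0.627% lower and 2.61% either way. At an unadjusted p under 0.05, edgeR found 6 members higher and 1 lower, a count not made over all genes. DESeq2 called 5 members (Mmp12, Timp1, Adamts5 and Loxl1 higher, Adamts8 lower) and 1149 of all genes. In edgeR on these 2 groups alone, 9 members and 1458 of all genes were called, beside 388 of all genes with all groups. In 13 of the 40 members all 4 Bin1 mck-/- mice lay above all 4 WT mice and in 1 below, beside 9.09% and 7.46% of all genes. The median log2 fold change was 0.39 over the members and 0.01 over all genes.

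Timp1 had 1.31, 1.77, 0.992 and 0.844 CPM in WT and 10.1, 15.4, 4.18 and 51.6 CPM in Bin1 mck-/- placebo mice (3.98 ± 1.18, adjusted p = 0.10). Lox had 4.89, 4.59, 4.64 and 4.10 CPM in WT and 9.65, 18.0, 6.24 and 56.5 CPM in Bin1 mck-/- mice (2.30 ± 0.93, adjusted p = 0.21). Neither overlapped, and mouse 4 was the highest of its group in both. Mouse 4 also had 37.7 CPM of Mmp14, against 18.9 to 19.3 CPM in the other 3 and 15.2 to 15.7 CPM in WT, and 158 CPM of Mmp2, against 72.7 to 82.0 and 52.6 to 54.6 CPM. It was the mouse with 1084 CPM of tendon markers, which summed to 95.5 to 229.9 CPM in WT. Loxl1 had 19.3, 18.6, 22.5 and 16.1 CPM in WT and 42.3, 49.4, 37.9 and 67.2 CPM in Bin1 mck-/- mice (1.36 ± 0.44, adjusted p = 0.12), and Mmp19 had 2.15, 2.65, 2.30 and 1.33 CPM in WT and 6.16, 6.502, 4.37 and 9.75 CPM in Bin1 mck-/- mice (1.64 ± 0.56, adjusted p = 0.13). In both, every Bin1 mck-/- mouse was above every WT mouse.

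Adamts8 was the 1 member with every Bin1 mck-/- mouse below every WT mouse, at 5.36, 5.47, 18.4 and 7.62 CPM against 41.5, 45.2, 35.3 and 58.7 CPM (-2.29 ± 0.57, adjusted p = 0.064). Timp3 had 151, 159.8, 162 and 117 CPM in WT and 92.1, 152, 103 and 159.7 CPM in Bin1 mck-/- mice (-0.22 ± 0.29), and Adamts9 14.2, 9.15, 9.86 and 13.4 CPM in WT and 5.00, 11.04, 7.63 and 9.78 CPM in Bin1 mck-/- mice (-0.48 ± 0.32), both with overlap. Single mice changed the calls. Without Bin1 mck-/- tamoxifen mouse 2, Mmp19, Timp1 and Adamts2 were called, without tamoxifen mouse 4, Mmp19, Adamts5 and Loxl1, and without tamoxifen mouse 3, Mmp12 and Adamts8. Adamts8 alone was called without tamoxifen mouse 1 or placebo mouse 3. Calls over all genes moved too, from 388 with all mice to 759, 623, 683 and 340 without tamoxifen mouse 2, 4, 3 or 1. They numbered 728 without placebo mouse 3, but 105, 97 and 58 without Bin1 mck-/- placebo mouse 1, 2 or 4. Without WT mouse 5, 6, 7 or 8 they numbered 207, 26, 89 and 18. No member was called without Bin1 mck-/- placebo mouse 1, 2 or 4 or without any 1 of the WT mice. Of the markers tested, 2 of 8 macrophage, 3 of 4 adipocyte and 1 of 8 fibroblast and progenitor markers were higher in Bin1 mck-/- mice. Lower were 3 of 5 satellite cell markers, 1 myofiber marker and 1 osteoclast marker. The osteoclast markers together summed to 8.045 to 9.95 CPM in WT and 13.6 to 35.0 CPM in Bin1 mck-/- mice, higher without overlap. Calcr counts in both the osteoclast and the satellite cell list. The macrophage markers summed to 61.4 to 96.6 CPM in WT and 183 to 360.2 CPM in Bin1 mck-/- mice, the adipocyte markers to 2.88 to 5.48 and 27.3 to 91.3 CPM, the fibroblast and progenitor markers to 356 to 411 and 691 to 1021 CPM, and the satellite cell markers to 13.6 to 15.8 and 3.17 to 7.94 CPM. Their part in these values was not tested.

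Under tamoxifen, Bin1 mck-/- mice had 2 members lower and none higher than on placebo (5.0% of 40), beside 1.52% of all genes higher, 1.61% lower and 3.13% either way. Adamts5, an aggrecanase, had 14.4, 16.4, 13.4 and 16.8 CPM on placebo and 12.1, 10.98, 7.95 and 5.96 CPM on tamoxifen (-0.72 ± 0.18, adjusted p = 0.047). Adamtsl5 had 128, 102, 96.2 and 119 CPM on placebo and 77.0, 85.3, 49.4 and 60.5 CPM on tamoxifen (-0.71 ± 0.17, adjusted p = 0.031). Neither overlapped between the groups. Both calls were lost in edgeR on these 2 groups alone and without placebo mouse 1, 2 or 4 or tamoxifen mouse 3 or 4, and Adamts5 also without any 1 of the 4 WT mice, with adjusted p up to 0.12 for Adamts5 and 0.090 for Adamtsl5. Without tamoxifen mouse 2, 6 members were called, with Mmp17, Mmp19, Timp1 and Adamts4 added, and DESeq2 on all mice called 4. Over all genes, these fits called 1253 and 1166, beside 464 in edgeR on all mice. Of the markers tested, 2 of 5 Schwann cell, 1 of 8 fibroblast and progenitor and 1 of 4 adipocyte markers were lower on tamoxifen. Higher were 2 of 5 satellite cell, 1 of 8 myofiber and 1 of 7 osteoclast markers, with Calcr in both the satellite cell and the osteoclast list. The osteoclast markers together summed to 13.6 to 35.0 CPM on placebo and 6.18 to 182.7 CPM on tamoxifen, with overlap. The fibroblast and progenitor markers summed to 691 to 1021 CPM on placebo and 119.7 to 773 CPM on tamoxifen, the Schwann cell markers to 38.8 to 88.1 and 15.6 to 30.2 CPM, the adipocyte markers to 27.3 to 91.3 and 3.06 to 20.7 CPM, the satellite cell markers to 3.17 to 7.94 and 11.2 to 12.3 CPM, and the myofiber markers to 100800.0 to 140000.0 and 119500.0 to 188300.0 CPM. Their part in the result was not tested.

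Of the 24 members that rose with tamoxifen in WT mice, 11 lay above every Bin1 mck-/- placebo mouse in tamoxifen mouse 2, and 0, 1 and 1 did in mice 1, 3 and 4, where the 1 member was Adamts14. Here too, the share of all genes was not counted. In mouse 2, Adamts15 (2.97 CPM) lay below every placebo mouse. Adamts4 did so in all 4 treated mice, at 1.40, 1.40, 0.504 and 0.402 CPM against 1.64 to 4.02 CPM on placebo. Mmp14 had 21.0, 139, 15.4 and 8.81 CPM on tamoxifen and 19.1, 18.9, 19.3 and 37.7 CPM on placebo (0.96 ± 0.76, adjusted p = 0.52). Mmp2 had 81.2, 332, 56.7 and 16.1 CPM on tamoxifen (0.30 ± 0.72), Lox 4.45, 38.6, 6.36 and 3.22 CPM (-0.77 ± 0.88) and Timp1 2.09, 25.8, 1.09 and 2.52 CPM (-1.34 ± 1.04). Mouse 2 was the highest treated mouse in each of these 4 genes, above the placebo range in Mmp14 and Mmp2 (72.7 to 158 CPM on placebo) and inside it in Lox (6.24 to 56.5 CPM) and Timp1 (4.18 to 51.6 CPM). It was the mouse with 466 CPM of osteoblast and osteocyte markers and 183 CPM of osteoclast markers, against 6.18 to 18.2 CPM in the other 3. In mice 1, 3 and 4, Timp1 was below every placebo mouse. The part of bone cells in these values was not tested.

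Between Bin1 mck-/- mice on tamoxifen and WT mice on placebo, none of the 40 members was called by edgeR or DESeq2, beside 0.465% of all genes higher, 0.384% lower and 0.849% either way by edgeR. At an unadjusted p under 0.05, 3 members were higher and 4 lower, a count not made over all genes. Adamts8 had 5.97, 15.7, 37.4 and 13.8 CPM on tamoxifen, where mouse 3 reached into the WT range (-1.31 ± 0.55, adjusted p = 0.31).

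Other genes of the pathway were read from 4 further lists. Some of them also count as cell type markers: Mmp9 for osteoclasts, Acan for cartilage, Comp and Fmod for tendon, and Dcn for fibroblasts and progenitors. Among all genes, 15.8% rose with tamoxifen in WT mice, 5.22% rose in Dnm2 S619L/+ mice, and 12.1% were higher with the Dnm2 mutation. In Bin1 mck-/- mice, 1.99% were higher than in WT mice on placebo, and 1.52% rose and 1.61% fell with tamoxifen. Of 13 other MMP and ADAMTS genes, 5 were tested in the first cohort, and 2 rose with tamoxifen in WT and in Dnm2 S619L/+ mice, the collagenase Mmp13 and the gelatinase Mmp9. Mmp13 had 0.0849 to 0.953 CPM in WT placebo mice and 588 to 1160.0 CPM in WT tamoxifen mice (10.42 ± 1.18), and 13.1 to 1064 CPM in Dnm2 S619L/+ tamoxifen mice (10.09 ± 1.19). Mmp9 had 0.316 to 1.52 CPM in WT placebo mice and 51.7 to 349 CPM in WT tamoxifen mice (7.61 ± 0.99). Papln, a papilin with ADAMTS-like repeats, was lower with the Dnm2 mutation (-1.52 ± 0.35) and with tamoxifen in WT mice (-1.32 ± 0.34). In the second cohort, none of the 4 genes tested was called.

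Of 14 activators and regulators of proteases tested, 10 rose with tamoxifen in WT mice, 3 in Dnm2 S619L/+ mice and 4 with the Dnm2 mutation, with none lower. Plaur, the urokinase receptor, rose by 1.37 ± 0.38 with the mutation and by 2.65 ± 0.39 with tamoxifen in WT mice. In Bin1 mck-/- mice on tamoxifen, Bsg was higher (0.64 ± 0.15) and Pcsk6 lower (-1.35 ± 0.27). Of 19 matrix substrates tested, 15 rose with tamoxifen in WT mice and 8 in Dnm2 S619L/+ mice. With the mutation, 2 were higher, Vcan (0.79 ± 0.25) and Fbn2 (2.36 ± 0.60), a share near the 12.1% of all genes. Col1a1, the main chain of type I collagen, had 127 to 419.7 CPM in WT placebo mice and 3584 to 7671 CPM in WT tamoxifen mice (4.48 ± 0.61). None of the 18 substrates tested in the second cohort was called.

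Of 15 genes of collagen maturation and crosslinking, 9 rose with tamoxifen in WT mice, 5 in Dnm2 S619L/+ mice and 3 with the mutation. The procollagen C-proteinase Bmp1 rose by 1.92 ± 0.33 in WT and by 1.33 ± 0.33 in Dnm2 S619L/+ mice on tamoxifen. In Bin1 mck-/- mice on placebo, 1 of the 15 was higher than in WT, the procollagen C-proteinase enhancer Pcolce2 (1.23 ± 0.29, adjusted p = 0.036). With tamoxifen, Pcolce2 (-1.57 ± 0.29) and the prolyl hydroxylase subunits P4ha1 (-0.84 ± 0.20) and P4ha2 (-0.57 ± 0.13) were lower there, and P4ha2 was also lower than in WT (-0.64 ± 0.14).

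In all, 30 of the 45 members were called in at least 1 comparison. The 15 others were Mmp8, Mmp15, Mmp17, Mmp24, Adamts6, Adamts10, Adamts12, Adamts16, Adamts18, Adamts19, Adamts20 and the ADAMTS-like genes Adamtsl1, Adamtsl2, Adamtsl3 and Adamtsl4. Among them, Adamtsl4 was one of the highest members, at 11.5 ± 1.16 RPKM in WT placebo mice of the first cohort, and its log2 fold change was -0.18 ± 0.24 with the Dnm2 mutation and 0.01 ± 0.24 with tamoxifen in WT mice.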

How the data were processed

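TA muscle RNA of 28 mice was sequenced with a stranded poly-A kit. Counts per Ensembl gene were deposited by the authors, with bcl2fastq 2.20.0.422, cutadapt 1.10, Bowtie 1.2.2, STAR 2.5.3, HTSeq 0.6.1p1 and the build mm39 named in the submitters' processing notes; the strand setting of the counting was not given in the sources used here. Rows that name no gene (22.0 to 30.8% of reads in the second cohort's table) were left out. Symbols and exon lengths were taken from GENCODE M21. Groups came from the labels. The members, lists and tests were chosen with earlier results of these data known.

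Each cohort was fitted with all its groups in 1 model in edgeR 4.0.16 (R 4.3.3) with filterByExpr, TMM and the robust quasi-likelihood test, with a prior count of 2 for fold changes, and p-values were adjusted (Benjamini-Hochberg, threshold 0.05) over the 15439 and 14841 genes tested. They cover the spread between these mice. Fold changes are log2 values with SE. On simulated counts, 88% of genes changed 4-fold and 59% changed 2-fold were found for Dnm2 S619L/+ against WT mice on placebo (15439 genes). For Bin1 mck-/- against WT mice on placebo (14841 genes), 74% and 55% were found. Unchanged genes made up 3.92% and 6.52% of the genes called. Single mice that stand apart over many genes, as in some real groups, were not simulated, so these shares may not hold there. Alternatives were DESeq2 1.42.0, other size factors, no filter or the filter of the study (over 10 reads in 90% of mice), the compared groups alone, a replicate block, each mouse left out and, added after seeing the data, libraries thinned to the smallest. Values of every mouse were given for the 12 members with the smallest p in any comparison of 2 groups and for the highest member of each role, and for a few others chosen after their values were seen.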

Additional observations from a re-analysis of the deposited data

Results flagged for a closer look

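Single mice stood apart from the other 3 of their group by Dixon's test in 8 of 105 groups of 4 examined over 15 members, where chance flags about 1 in 20. Bin1 mck-/- tamoxifen mouse 2 was high in 4 members. It had 25.84 CPM of Timp1 against 1.09 to 2.52 CPM, 38.64 CPM of Lox against 3.22 to 6.36 CPM, 139.0 CPM of Mmp14 against 8.81 to 21.0 CPM and 13.56 CPM of Mmp23 against 1.39 to 2.18 CPM. Bin1 mck-/- placebo mouse 4 was high in 2 members, with 37.69 CPM of Mmp14 against 18.9 to 19.3 CPM and 158.4 CPM of Mmp2 against 72.7 to 82.0 CPM. Dnm2 S619L/+ tamoxifen mouse 1 was low in Adamts9, with 14.72 CPM against 23.7 to 24.8 CPM, and Dnm2 S619L/+ placebo mouse 4 was low in Loxl1, with 16.5 CPM against 24.4 to 26.0 CPM. The change of Timp1 under tamoxifen differed between the genotypes of the first cohort, by -5.13 on the log2 scale (Dnm2 S619L/+ minus WT, adjusted p = 0.025 by edgeR).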

How the results depend on the processing

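None of the members called in a comparison changed direction in it under the alternatives run; the directions of members that were not called were not followed. For Dnm2 S619L/+ tamoxifen against placebo, 10 members were called, against 15 with DESeq2, 6 without a filter and 1 with these 2 groups alone, and 6 to 20 when 1 mouse was left out. For Dnm2 S619L/+ against WT mice on tamoxifen, the 1 call became 2 with DESeq2, with DESeq2-style size factors, without a filter and with the replicate block, and 0 to 2 with 1 mouse left out. For the interaction, the 1 call became 2 with DESeq2, 0 without a filter, 0 with the replicate block, 0 with libraries thinned, and 0 to 2 with 1 mouse left out. For Bin1 mck-/- against WT mice on placebo, the 0 calls became 5 with DESeq2 and 9 with these 2 groups alone, and 0 to 3 with 1 mouse left out. For Bin1 mck-/- tamoxifen against placebo, the 2 calls became 4 with DESeq2, 0 with these 2 groups alone, 0 with the replicate block, and 0 to 6 with 1 mouse left out. The cause was not tested. Calls over all genes moved as well, for Dnm2 S619L/+ tamoxifen against placebo from 1277 to 1870 with DESeq2 and to 30 with these 2 groups alone. Calls with 1 mouse left out numbered 6 to 12 for Dnm2 S619L/+ against WT mice on placebo, 19 to 26 for WT tamoxifen against placebo, and 0 to 0 for Bin1 mck-/- tamoxifen mice against WT mice. Same-numbered mice deviated together with r from -0.32 to 0.33 (9 of 24 pairs over 0.1) in the first cohort and from -0.18 to 0.15 (1 of 4) in the second, so the numbers were not taken as pairs, and the replicate block gave 7, 25 and 8 calls for the mutation on placebo, tamoxifen in WT and tamoxifen in Dnm2 S619L/+ mice. With it, Adamts1 was not called for the mutation on placebo, Mmp11 and Mmp12 for tamoxifen in WT mice, Timp2 and Loxl1 for tamoxifen in Dnm2 S619L/+ mice, Timp1 for the interaction, and Adamts5 and Adamtsl5 for tamoxifen in Bin1 mck-/- mice. Depth limits the lowest members, of which 3 could be tested in neither cohort.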
